A study of Sus scrofa with 12 samples.

Results

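The genes described here were 8 members of the fibroblast growth factor (FGF) system in pig cells, the 4 receptors FGFR1, FGFR2, FGFR3 and FGFR4 and the 4 ligands FGF2, FGF4, FGF7 and FGF10. They were picked by gene name from a table of 30012 loci, and where several rows carried a name the row with the highest mean level was taken, rows with an Ensembl annotation first. In all, 14 rows belonged to the 8 genes. The row for FGFR1 carries the name FGFR1IIIC and was matched by its Ensembl identifier, the other 7 genes by name. Of the 8 genes, 7 passed the filter on low values, which asked for an FPKM of 1 or more in 3 or more libraries, and FGF10 did not.

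FGF receptors are receptor tyrosine kinases that bind an FGF together with heparan sulphate, and they pass the signal through the adaptor FRS2 to the RAS, RAF, MEK and ERK cascade. Alternative splicing of an extracellular exon gives FGFR1, FGFR2 and FGFR3 an epithelial form (IIIb) and a mesenchymal form (IIIc). In human and mouse, FGF2 is read mainly by the IIIc forms and by FGFR4, and FGF4 by the IIIc forms among others. In these species FGF7 and FGF10, which mesenchymal cells secrete to epithelia, are read by the IIIb form of FGFR2. FGF2 is a standard supplement for primed pluripotent stem cells, and FGF4 is made by the pluripotent cells of the early embryo. The table gives 1 value per locus, so the forms of a receptor were not separated, and the name FGFR1IIIC does not show which form was read.

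Polyadenylated RNA was sequenced from 12 libraries, 3 in each of 4 groups. The embryonic stem cell (ESC) lines were the parthenogenetic lines ESC7 and ESC3, made from activated eggs with no sperm genome, and ESC11, made by in vitro fertilisation (IVF). The reference cells were fetal fibroblasts taken from a fetus at day 30 after conception and grown to passage 6, in a medium that the labels do not give. All 3 ESC lines grew on feeder cells in a serum-replacement medium with 20 ng/mL FGF2, 5 ng/mL ActA, 1.5 µM CH and 2.5 µM IWR-1, and Y-27632 around passaging, and cells positive for the surface antigen SSEA1 were sorted on magnetic columns before RNA extraction. With 2 parthenogenetic lines and 1 IVF line, origin and line cannot be told apart. Since no label tells whether libraries of 1 group were separate cultures, p-values measure their spread alone, and this may be technical.

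The authors gave FPKM values, the fragments per kilobase of a transcript at a fixed number of mapped fragments. They are per length, so genes can be set beside each other within a library. The table gives no read counts, so the depth behind a value is unknown. Between 21898 and 24100 loci were above 0 in a library. Of 7 pluripotency markers all were called higher in ESCs, with a summed FPKM of 1731 to 1930 in ESC libraries and of 0.0262 to 0.152 in fibroblasts. They passed the filter on low values through the ESC libraries alone and so had to differ. Of 12 fibroblast markers all were called lower in ESCs, with a summed FPKM of 74.1 to 115 in ESC libraries and of 17640 to 17870 in fibroblasts, and none was at 0 in every ESC library. In such bulk samples fewer cells of a type and less RNA per cell cannot be told apart.

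ESCs carried transcripts of all 4 receptors, while fibroblasts carried mainly FGFR1 and FGFR2. FGFR4 and FGFR3 rose in ESCs against fibroblasts, FGFR1 and FGFR2 were higher by less than the fold minimum, FGF4 appeared in ESCs alone among these groups, and FGF7 in fibroblasts alone. FGF2 was abundant in both. A gene was called at an adjusted p under 0.05 (limma, Benjamini-Hochberg over all loci tested) and a log2 difference of at least 1 in size, on the log2(FPKM + 1) scale, which understates the change of low genes. By this rule 4 of the 7 tested genes were called, 3 higher and 1 lower, beside 43.1% of all 18278 loci tested, 28.1% higher and 14.9% lower. By adjusted p alone all 7 passed, beside 87.7% of all loci. FGFR4, FGF4 and FGF7 passed the filter only through the group where they are high, so they had to differ, and the count is no support for the group of genes. The median log2 difference over all loci was 0.44.

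FGFR1 is the receptor most often linked to FGF2 signalling in pluripotent cells. It lies on chromosome 15 from 55215570 to 55269825 (ENSSSCG00000015815.L01, Sscrofa10.2, as are all coordinates here) and overlaps LETM2 on the opposite strand, whose reads cannot be told apart without stated strand. Its FPKM was 60.7, 64.0 and 68.1 in ESC7, 72.9, 71.1 and 75.0 in ESC3, and 65.9, 63.8 and 64.4 in ESC11, against 36.0, 36.1 and 37.9 in fibroblasts. Every ESC library lay above every fibroblast library. The mean was 67.3 ± 4.78 over the 9 ESC libraries and 36.7 ± 1.04 over the 3 of fibroblasts (SD). The log2 difference of 0.86 ± 0.04 (SE, adjusted p = 1.82e-09, limma) was below the fold minimum.

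FGFR2, the receptor that also reads FGF7 and FGF10 in its IIIb form, was taken from the row on scaffold GL894671.1, 1326 to 11237. There it had an FPKM of 64.8, 68.6 and 68.7 in ESC7, 76.7, 82.4 and 77.6 in ESC3, and 53.2, 56.5 and 53.9 in ESC11, against 44.1, 40.6 and 42.2 in fibroblasts. ESC libraries again lay above all fibroblast libraries, with the smallest gap in ESC11. The log2 difference was 0.63 ± 0.04 (SE, adjusted p = 2.69e-08, limma), also below the fold minimum. Relative to the median of all loci the differences were 0.41 for FGFR1 and 0.19 for FGFR2, and after median-ratio scaling of the libraries they were 0.41 and 0.19. For FGFR2 in ESC11 against fibroblasts, the sign turned with that scaling, at -0.06 against 0.36 as deposited.

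FGFR3, a receptor best known for restraining bone growth, lies on chromosome 8 from 336763 to 342135. Its FPKM was 55.1, 55.4 and 58.8 in ESC7, 45.8, 43.0 and 40.5 in ESC3, and 43.9, 46.9 and 49.4 in ESC11, against 7.64, 9.75 and 8.07 in fibroblasts. The lowest ESC library was well above the highest fibroblast library. FGFR3 rose by 2.39 ± 0.07 on the log2 scale (SE, adjusted p = 6.71e-11, limma). A second, unannotated row named FGFR3 lies beside it on the opposite strand, from 342503 to 344745, at 25.3 ± 3.40 in the 9 ESC libraries and 4.21 ± 0.142 in the 3 fibroblast libraries (SD). Both rows gave nearly the same log2 difference, 2.39 and 2.32.

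FGFR4, a receptor best known in liver and developing muscle, lies on chromosome 2 from 82414997 to 82427326. It had an FPKM of 26.0, 25.5 and 26.6 in ESC7, 20.4, 20.7 and 22.5 in ESC3, and 20.7, 23.6 and 21.1 in ESC11, against 0.592, 0.938 and 0.781 in fibroblasts. No fibroblast library reached an FPKM of 1. On the log2 scale FGFR4 differed by 3.76, more than the other receptors. No p is given, since it passed the filter through the ESC libraries alone and had to differ. The rise of FGFR3 remained above the fold minimum under each scaling tried, the smallest being 1.96 after median-ratio scaling. For FGFR4 the smallest was 3.30, after quantile normalization, which is no support, since FGFR4 had to differ.

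**Figure D1:**
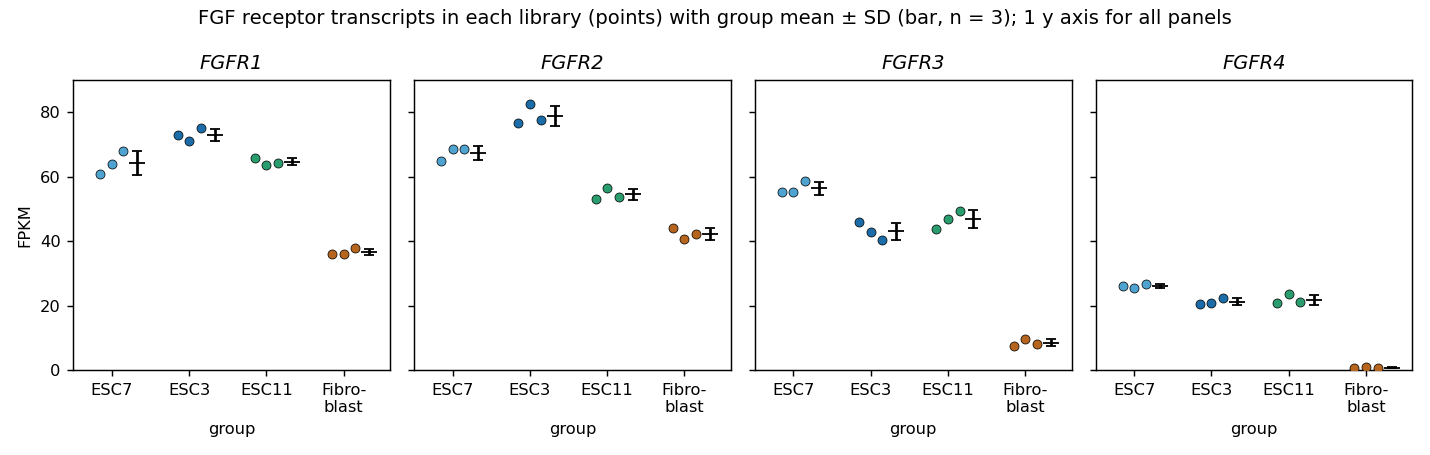
FPKM of the 4 FGF receptors (y axis, shared by the panels) in each library of ESC7, ESC3, ESC11 and fibroblasts (x axis), with the group mean and SD beside the points. FGFR3 and FGFR4 span 40.5 to 58.8 and 20.4 to 26.6 in ESC libraries, and stand near the bottom of the axis in fibroblasts, at 8.49 and 0.770 on average.

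The order of the receptors within a group rested partly on the rows that stand for FGFR2 and FGFR3. On the chosen rows, in every ESC library FGFR1 and FGFR2 were highest, FGFR3 came next and FGFR4 last, and in every fibroblast library FGFR4 was also last, behind FGFR3. FGFR3 had 0.864 to 0.908 of the FGFR1 level in ESC7, 0.540 to 0.629 in ESC3 and 0.666 to 0.768 in ESC11, against 0.212 to 0.270 in fibroblasts. The ratio of FGFR3 to FGFR4 was 1.80 to 2.35 in the 9 ESC libraries and 10.3 to 12.9 in fibroblasts. On the unannotated FGFR3 row the ratio was 0.929 to 1.28 in ESC libraries and 4.65 to 7.08 in fibroblasts, and FGFR3 was below FGFR4 in ESC3 library 3, at 20.9 against 22.5.

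Between FGFR1 and FGFR2 the order was less clear. On scaffold GL894671.1, FGFR2 stood above FGFR1 in all 3 libraries of ESC7, of ESC3 and of fibroblasts, and below it in all 3 of ESC11. The ranges of FGFR1 and FGFR2 overlapped in ESC7 and did not overlap in the other groups. On the row of chromosome 14, 142499475 to 142570296, FGFR2 was at 59.8, 64.3 and 70.5 in ESC7, 69.8, 69.8 and 72.1 in ESC3, and 44.1, 48.1 and 47.2 in ESC11, against 32.8, 35.4 and 37.4 in fibroblasts. That row was below FGFR1 in every library except 2 of ESC7, and in fibroblasts the ranges overlapped. A further FGFR2 row on scaffold GL893373.1, 11694 to 15984, reached 26.2 ± 4.05 in the 9 ESC libraries and 14.5 ± 0.183 in the 3 fibroblast libraries (SD), below FGFR1 in all 12 libraries and below FGFR3 in all 9 of ESCs. In ESC11 library 3, FGFR3 at 49.4 was also above the chromosome 14 row of FGFR2.

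Which of FGFR1 and FGFR2 was the most abundant receptor transcript therefore changed with the row in ESC7, ESC3 and fibroblasts, while in ESC11 FGFR1 was highest with each of the 3 rows. The rows were not summed for this comparison, since whether they are parts of 1 gene or copies was not tested. They differed less in their change between groups, with log2 differences of 0.63, 0.75 and 0.80 between ESCs and fibroblasts on the GL894671.1, chromosome 14 and GL893373.1 rows.

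**Figure D2:**
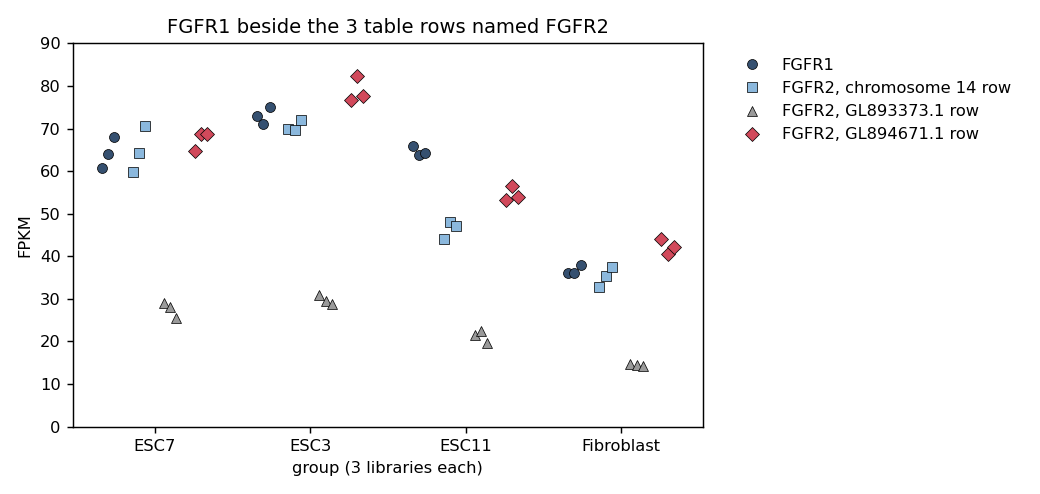
FPKM (y axis) of FGFR1 and of the 3 table rows named FGFR2 in each library, by group (x axis, 3 libraries each). The scaffold row GL894671.1 lies above FGFR1 in fibroblasts, the chromosome 14 row overlaps FGFR1 there, and in ESC11 all 3 rows lie below FGFR1.

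As a share of the summed FPKM of the 4 receptors, FGFR3 and FGFR4 took more in ESCs than in fibroblasts. The sum itself was 207 to 222 in ESC7, 216 to 217 in ESC3 and 184 to 191 in ESC11, against 87.3 to 88.9 in fibroblasts. FGFR1 held 32.7% ± 2.26 in the 9 ESC libraries and 41.6% ± 0.941 in the 3 fibroblast libraries (SD), and FGFR2 held 32.3% ± 3.38 in ESCs and 47.9% ± 1.80 in fibroblasts. FGFR3 held 23.7% ± 3.05 in ESCs and 9.63% ± 1.35 in fibroblasts, and FGFR4 held 11.2% ± 1.16 in ESCs and 0.874% ± 0.202 in fibroblasts. The shares are given without a test. They do not depend on the scaling of a library, but on the rows: with the chromosome 14 row, FGFR1 held 45.2% and FGFR2 43.4% in fibroblasts. With the GL893373.1 row FGFR2 held 15.8% in ESCs and 24.0% in fibroblasts, and with the rows of each gene summed it held 48.05% in ESCs and 64.7% in fibroblasts.

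**Figure D3:**
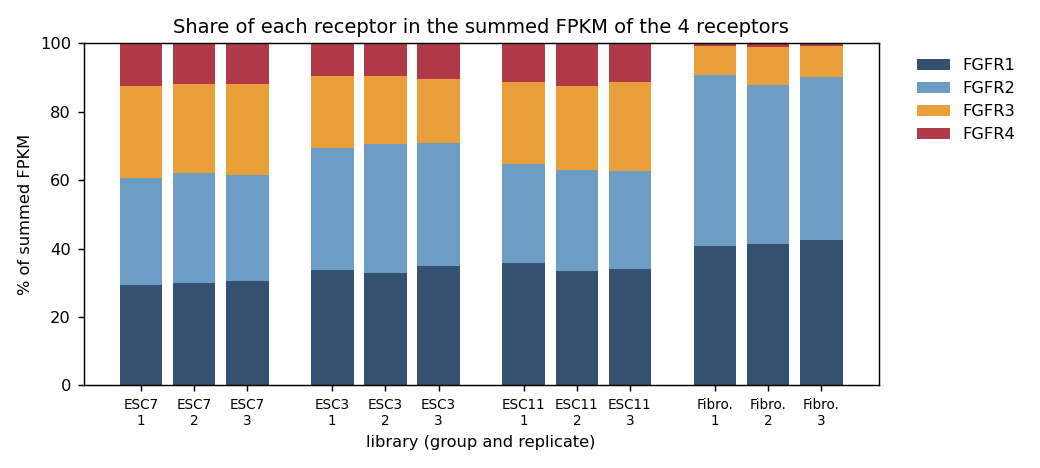
Stacked bars give the share of each receptor (y axis, percent of the summed FPKM of FGFR1 to FGFR4) in each of the 12 libraries (x axis). FGFR4 is a thin band of 0.670% to 1.07% in fibroblasts and 9.45% to 12.6% in ESC libraries.

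Among the ligands, FGF2 was the only 1 of the 4 that was abundant in ESCs and fibroblasts alike. FGF2, the factor added to the ESC medium, lies on chromosome 8 from 108484047 to 108504191. Its FPKM was 181, 195 and 177 in ESC7, 79.2, 108 and 88.9 in ESC3, and 103, 181 and 131 in ESC11, against 192, 178 and 198 in fibroblasts. ESC7 overlapped with fibroblasts, ESC3 lay below all fibroblast libraries, and ESC11 ran from a value within the ESC3 range to one within the fibroblast range. The mean over the lines was lower by 0.52 ± 0.14 on the log2 scale (SE, adjusted p = 0.00574, limma), below the fold minimum. Against fibroblasts, with the same 3 fibroblast libraries in each comparison, the log2 difference was -0.04 in ESC7, -1.04 in ESC3 (adjusted p = 0.000233, limma) and -0.49 in ESC11, so FGF2 fell in ESC3 by the rule used here. The ESC3 call ended without ESC3 library 1, at -0.94. With libraries scaled to the same summed FPKM the ESC11 value was 0.35. The median of all loci was 1.12 there, so relative to it FGF2 was at -0.77. As deposited, FGF2 relative to the median of all loci was at -0.49 in ESC7, -1.48 in ESC3 and -0.88 in ESC11. Over all ESC lines it was at -0.96. After median-ratio scaling FGF2 was at -0.52 in ESC7 (adjusted p = 0.0173, limma), -0.91 in ESC11 and -0.98 over all lines. Quantile normalization and the same sum gave -0.36 and -0.24 in ESC7 (adjusted p = 0.0664 and 0.591, limma).

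The FGF2 row overlaps NUDT6, a gene on the opposite strand, and without stated strand the reads of the pair cannot be told apart. NUDT6 had 22.2 to 23.1 in ESC7, 14.5 to 15.3 in ESC3 and 18.0 to 20.2 in ESC11, against 20.1 to 21.8 in fibroblasts. It was thus low in ESC3, as FGF2 was. The part of NUDT6 in the FGF2 values was not tested.

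FGF4, the ligand made by pluripotent embryo cells, lies on chromosome 2 from 2004237 to 2008504. Its FPKM was 6.60, 6.02 and 7.91 in ESC7, 2.26, 3.98 and 2.92 in ESC3, and 4.06, 2.98 and 3.25 in ESC11, and it was listed at 0 in all 3 fibroblast libraries. It was called higher in ESCs, though not with a pseudocount of 5, and no fold or p is given, since it passed the filter through the ESC libraries alone. A row on the opposite strand with the same name, 2003725 to 2008455, had 0.886 to 1.67 in ESC libraries and was at 0 in fibroblasts. FGF4 was far below FGF2 in every ESC library.

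FGF7, the keratinocyte growth factor, showed the opposite pattern. On its row of chromosome 1, 135992858 to 135994311, the FPKM was listed at 0 in all 9 ESC libraries, against 507, 480 and 492 in fibroblasts. In fibroblasts this row, which spans 1454 bp, was above the FGF2 row in every library. Whether it covers the whole gene was not tested. FGF7 was called lower in ESCs, and no fold or p is given, since it passed the filter through the fibroblast libraries alone. A pair of further rows named FGF7 lies on either side of it, 135926618 to 135927935 and 136072700 to 136074017. The first was at 0 in all libraries, and the second reached 1.04 and 1.08 in 2 fibroblast libraries and 0 in the others. Reads that fit several of these like-named rows could be split between them. The summed fibroblast markers in ESC libraries were 0.418% to 0.647% of the fibroblast mean.

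FGF10, a ligand of limb and lung mesenchyme and the gene below the filter, lies on chromosome 16 from 30234655 to 30317162. It had an FPKM of 0.131, 0.194 and 0.340 in ESC7, 0.364, 0.292 and 0.375 in ESC3, and 0.145, 0.150 and 0.0760 in ESC11, against 0.495, 0.312 and 0.433 in fibroblasts. All values were under 1, and ESC3 and ESC7 overlapped with fibroblasts. In a fit with no filter its log2 difference was -0.20 ± 0.06 (SE, adjusted p = 0.00672, limma).

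**Figure D4:**
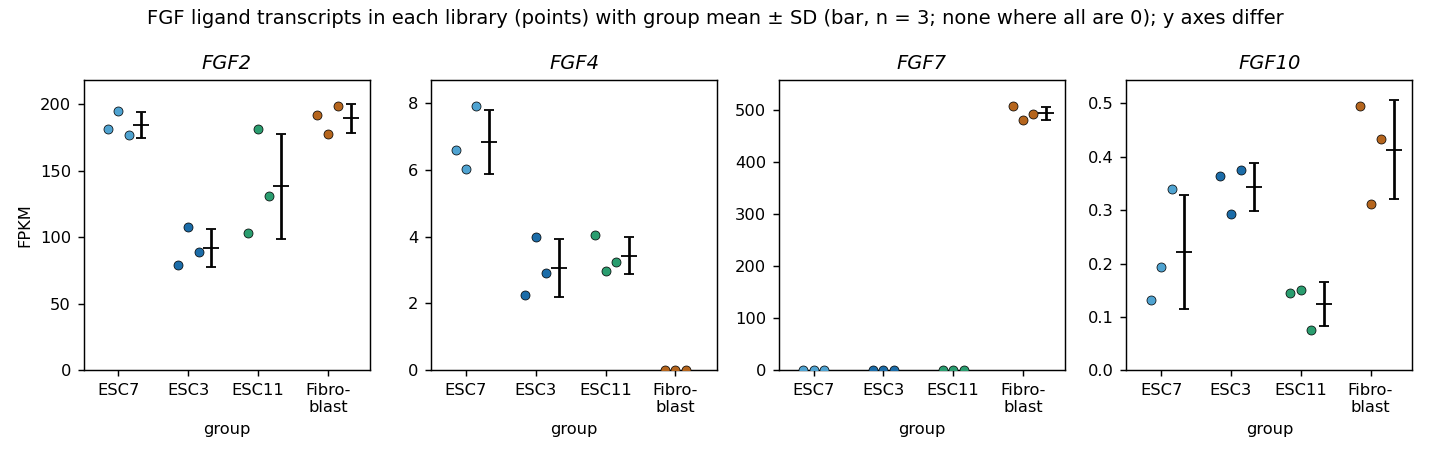
FPKM of FGF2, FGF4, FGF7 and FGF10 (y axes differ between panels) in each library of ESC7, ESC3, ESC11 and fibroblasts (x axis), with the group mean and SD, except where all libraries are at 0. FGF4 is at 0 in fibroblasts and FGF7 at 0 in ESCs, FGF2 reaches 195 in ESC7 and 198 in fibroblasts, and FGF10 stays under 0.5.

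The ESC lines were then compared with each other. Between the parthenogenetic lines and IVF ESC11, 0 of the 7 tested genes were called, beside 2.20% of all loci, and 2 were at an unadjusted p under 0.05 (limma), namely FGFR2 and FGF4. How many of all loci reach that unadjusted p was not counted. By adjusted p alone FGFR2 passed, beside 19.7% of all loci. FGFR2 averaged 73.1 ± 6.75 in parthenogenetic ESCs (SD, n = 6) and 54.5 ± 1.71 in ESC11 (SD, n = 3), and all 6 parthenogenetic libraries lay above the ESC11 libraries. Its log2 difference of 0.41 ± 0.04 (SE) had an adjusted p of 4.97e-05 (limma) and was below the fold minimum, with 0.53 and 0.42 on the chromosome 14 and GL893373.1 rows. Scaling to the same summed FPKM set the median of all loci at -1.03 and FGFR2 at -0.76, which is 0.26 above that median. FGFR1 averaged 68.6 in parthenogenetic ESCs and 64.7 in ESC11, a log2 difference of 0.08 ± 0.04 (SE), with overlapping libraries. The differences of FGFR3 and FGFR4 were 0.08 ± 0.07 and 0.11 ± 0.07 (SE), and that of FGF2 was -0.06 ± 0.15 (SE). Scaled to the same sum, FGFR1, FGFR3 and FGFR4 were at -1.10, -1.10 and -1.04, within 0.1 of the median of all loci.

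Between the 2 parthenogenetic lines, FGF2 was the 1 gene of the 7 that was called, beside 3.38% of all loci. It was at 184 ± 9.58 in ESC7 and 91.9 ± 14.5 in ESC3 (SD, n = 3 each), with no overlap, a log2 difference of 1.01 ± 0.18 (SE, adjusted p = 0.00129, limma). This value sits at the fold minimum, and the call ended at 0.91 without ESC3 library 1, at 0.99 without ESC3 library 3, at 0.96 without ESC7 library 2, and at 0.99 after quantile normalization or median-ratio scaling. FGF4 averaged 6.84 ± 0.966 in ESC7 and 3.05 ± 0.869 in ESC3 (SD, n = 3 each), at 0.97 ± 0.15 (SE, adjusted p = 0.00062, limma), just under the minimum, and it passed at 1.13 without ESC3 library 2 and at 1.04 without ESC7 library 2. On the opposite-strand row of FGF4 the difference was 0.02. Of 8 markers of differentiated cells 3 were tested and 1 was called between these lines, the endoderm factor GATA6, at 2.57 in ESC7 and 0.724 in ESC3. The summed FPKM of the marker list was 2.53 to 2.78 in ESC7 and 0.582 to 1.71 in ESC3. Its part in the FGF2 and FGF4 differences was not tested.

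The receptors differed between these lines by less. FGFR3 averaged 56.4 in ESC7 and 43.1 in ESC3, a log2 difference of 0.38 ± 0.08 (SE, adjusted p = 0.00403, limma). FGFR4 averaged 26.0 in ESC7 and 21.2 in ESC3, with a difference of 0.28 ± 0.08 (SE). FGFR1 and FGFR2 were lower in ESC7, at 64.2 and 67.4 against 73.0 and 78.9 in ESC3, with differences of -0.18 and -0.22, which were 0.11 and 0.071 after the scaling to the same sum, below the median of all loci there of 0.27. In each of these 4 receptors, on the chosen rows, the libraries of ESC7 and ESC3 did not overlap. The share of all loci without such overlap was not counted, so this cannot be read as particular to the receptors. On the chromosome 14 and GL893373.1 rows of FGFR2 the libraries of ESC7 and ESC3 overlapped (adjusted p = 0.167 and 0.193, limma). By adjusted p alone 6 of the 7 genes passed, all but FGF7, beside 39.9% of all loci.

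Against ESC11, 0 of the 7 genes were called in ESC7 (2.94% of all loci were) or in ESC3 (2.48%), with 5 and 3 at an unadjusted p under 0.05 (limma). The share of all loci at that unadjusted p was not counted, so these counts cannot be read as particular to the genes. FGF4 in ESC7 had the largest difference of the 7 genes, at 0.82 ± 0.15 (SE, adjusted p = 0.0025, limma). FGFR2 differed by 0.30 ± 0.04 in ESC7 and by 0.53 ± 0.04 in ESC3 (SE), and FGF2 by 0.45 ± 0.18 in ESC7 (adjusted p = 0.0807) and by -0.56 ± 0.18 in ESC3 (adjusted p = 0.0453). Under the scaling to the same sum, where the median of all loci was -0.86 in ESC7 and -1.16 in ESC3, FGF4, FGFR2 and FGF2 in ESC7 and FGFR2 in ESC3 were negative but above that median. Against fibroblasts 4 of the 7 genes were called in ESC7, 5 in ESC3 and 4 in ESC11, beside 43.4%, 44.1% and 42.9% of all loci, with FGF2 the additional gene in ESC3.

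Splicing regulators of the receptors differed widely between ESCs and fibroblasts. Of 8 listed, 7 were tested, 4 rose and 3 fell in ESCs, beside 28.1% and 14.9% of all loci. The median log2 difference was 1.09, against 0.44 over all loci. ESRP1, which in human and mouse promotes the epithelial IIIb exon of FGFR2, had 59.0 to 64.6 FPKM in ESC libraries and 0.123 to 0.195 in fibroblasts. Its log2 difference was 5.76, and no p is given, since it passed the filter through the ESC libraries alone and had to differ. MBNL1, a splicing factor of differentiated tissues, fell by 4.30 on the log2 scale, to 4.20 in ESCs against 100.4 in fibroblasts, MBNL2 fell by 2.97, and RBFOX2, which acts on FGFR2 exon choice, fell by 1.54. Receptor exons were not read in these values.

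Heparan sulphate carriers and coreceptors were mostly lower in ESCs. Of 21 listed, 15 were tested, 3 rose and 8 fell (median -1.02), beside 28.1% and 14.9% of all loci (median 0.44). SDC2, the heparan sulphate proteoglycan syndecan 2, fell by 7.16 ± 0.06 (SE), to 0.585 ± 0.746 in ESCs (SD, n = 9) against 206 ± 4.06 in fibroblasts (SD, n = 3). NCAM1 and CDH2, adhesion proteins that can bind FGF receptors, had log2 differences of -3.83 and -3.54, and FLRT3, a membrane partner of FGFR1, one of -3.62. The glypicans went in different directions, GPC3, GPC2 and GPC4 rising by 2.05, 1.48 and 1.14 and GPC1 falling by 1.02, with GPC6 at 0.44 not called. These glypicans were picked out after their values were seen, and GPC3 passed the filter through the ESC libraries alone.

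Enzymes of heparan sulphate split in both directions, with 2 of 13 tested genes (15 listed) higher and 4 lower in ESCs (median -0.49). Over all loci 28.1% were higher and 14.9% lower (median 0.44). HS6ST2, a sulphotransferase for the 6-O position that contributes to FGF receptor binding, had 9.55 ± 1.08 FPKM in the 9 ESC libraries and 0.105 ± 0.0246 in the 3 fibroblast libraries (SD), a rise of 3.25. SULF2 and SULF1, extracellular enzymes that remove such sulphates, had log2 differences of -2.16 and -1.30, and HPSE, heparanase, one of -2.01 (-0.74 with a pseudocount of 5). HS6ST2 passed the filter through the ESC libraries alone and HPSE through the fibroblast libraries alone, so both had to differ.

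In the cascade below the receptors the share called was close to that of all loci (43.1%). Of 24 adaptor and kinase genes, 22 were tested, 4 rose, 5 fell and 13 were not called (median 0.13). CBL, a ubiquitin ligase that targets active receptors, rose by 1.53, while the docking protein GAB1 fell by 2.01 on the log2 scale. FRS3, a receptor adaptor, rose by 1.26. Below the fold minimum, FRS3 was at 0.98 after median-ratio scaling, 0.82 after quantile normalization and 0.56 with a pseudocount of 5. FRS2, the main FGF receptor adaptor, was at 13.8 ± 0.644 in ESCs and 8.36 ± 0.396 in fibroblasts, not called. FRS2 was picked out after its values were seen.

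Of 17 feedback targets of FGF and MEK, 16 were tested, 10 rose and 2 fell (median 1.59). Over all loci 28.1% rose and 14.9% fell, with a median of 0.44. DUSP4, a phosphatase of ERK, was at 60.7 ± 9.60 FPKM in the 9 ESC libraries and 4.88 ± 0.364 in the 3 fibroblast libraries (SD). EGR1, an immediate early transcription factor, was at 178 ± 20.8 in ESCs and 23.2 ± 4.54 in fibroblasts. IER3, an immediate early gene, was lower, at 1.32 ± 0.415 in ESCs and 26.7 ± 1.31 in fibroblasts. DUSP5, a further ERK phosphatase, was the 1 gene of this list called between ESC7 and ESC3, with 66.9 in ESC7 and 31.0 in ESC3.

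Of 18 other FGF genes, 6 passed the filter. Of these 4 rose in ESCs and 0 fell (median 1.30), beside 28.1% and 14.9% of all loci. The 4 that rose, FGF19, FGF12, FGF21 and FGF14, were under an FPKM of 1 in every fibroblast library. They passed the filter through the ESC libraries alone, so they had to differ, and the count is no support for the list. FGF19 is an endocrine FGF that in human signals mainly through FGFR4. It had 18.9 to 31.2 FPKM in ESC libraries and 0.408 to 0.606 in fibroblasts, a log2 difference of 4.02 given without a p. Its coreceptor gene KLB was at 1.45 ± 0.163 in ESCs and 1.01 ± 0.0567 in fibroblasts, not called. FGF12 and FGF14, whose products stay inside the cell, rose by 2.34 and 1.12, and FGF21, a further endocrine FGF, by 1.48 on the log2 scale. FGF14 and FGF21 were at 0.65 and 0.90 after quantile normalization, and FGF12, FGF14 and FGF21 at 0.99, 0.32 and 0.55 with a pseudocount of 5, below the fold minimum. FGF5 and FGF8, ligands of the early embryo, were below the filter, with highest values in ESC libraries of 0.0934 and 0.130. KLB, FGF5 and FGF8 were picked out after their values were seen.

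Between the ESC lines the share of list genes called was near that of all loci. Between parthenogenetic and IVF ESCs, SDC2 alone was called of the 79 tested genes, beside 2.20% of all loci, with means of 0.0577 in ESC7 and 0.131 in ESC3 against 1.57 in ESC11, and with a pseudocount of 5 its difference was -0.37 in place of -1.23. Between ESC7 and ESC3, 3 of the 79 were called, beside 3.38% of all loci. DUSP5 rose by 1.08, and CDH2 and GPC6 fell by 1.06 each on the log2 scale. With a pseudocount of 5 they were at 0.996, -0.96 and -0.57, and with the same summed FPKM CDH2 was at -0.76 and GPC6 at -0.78, all short of the fold minimum. CDH2 was at 29.6 in ESC7 and 60.5 in ESC3, and its difference was -0.95 without ESC3 library 2 and -0.75 without ESC7 library 2. GPC6 was at 2.31 in ESC7 and 5.88 in ESC3, and its difference was -0.96 without ESC7 library 1 and -0.99 with library weights.

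**Figure D5:**
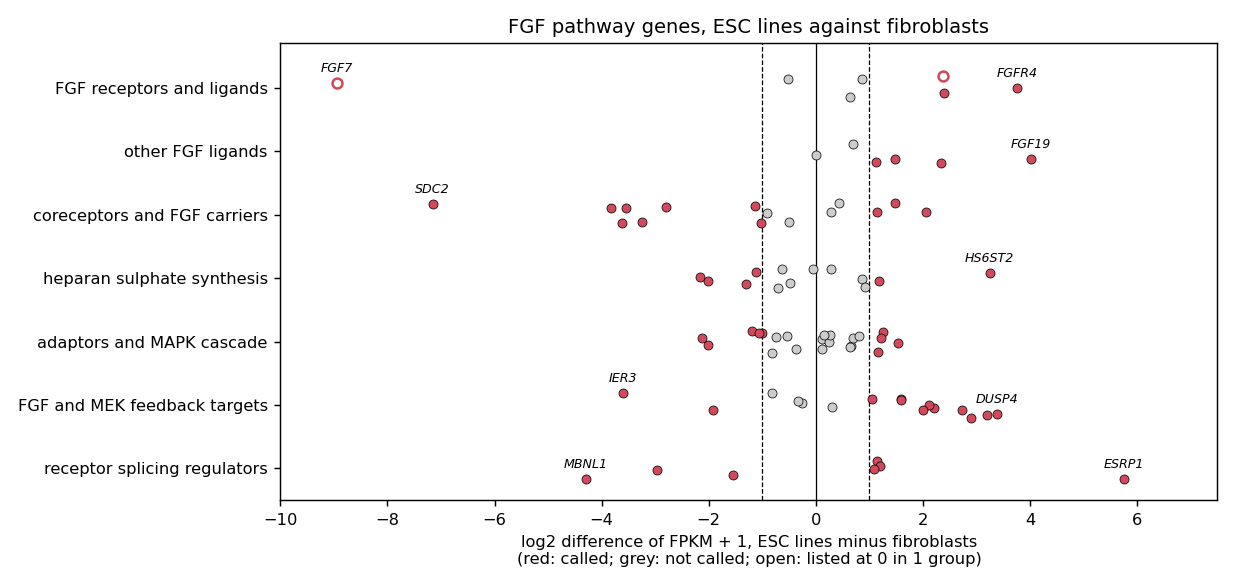
Log2 difference of FPKM + 1, ESC lines minus fibroblasts (x axis), for each tested gene of the FGF receptors and ligands and of 6 FGF pathway lists (rows), red where called, with dashed lines at the fold minimum and some of the outermost genes named. Open circles mark FGF7 and FGF4, listed at 0 in 1 of the groups, whose place depends on the pseudocount; ESRP1 at 5.76 and SDC2 at -7.16 lie farthest out in the pathway lists.

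The genes most like each receptor in level were sought by the Euclidean distance of log2(FPKM + 1) over the 12 libraries, among the Ensembl loci with a name. Among those nearest to FGFR1 were AUP1 at a distance of 0.280, with means of 67.1 in ESC7, 71.3 in ESC3, 66.3 in ESC11 and 40.1 in fibroblasts, and USP9X at 0.306. CNOT7, AMDHD2 and AUP1 were nearest to FGFR2, at 0.528, 0.558 and 0.596. For FGFR3 they were PLEKHG3, ACADSB and PCSK1N, at 0.634, 0.652 and 0.694, and for FGFR4 PPFIBP2, ENPP5 and UGPP, at 0.508, 0.516 and 0.537. Among the ligands, FGF4 was nearest to GALNT18 (0.545), KIRREL3 (0.616) and KAL1 (0.768), and FGF7 to the fibroblast-high genes ASPN (1.31), ACTG2 (1.61) and GREM1 (1.77). Nearest to FGF2 were ARCN1, TENC1 and Tuba1c, at 1.12, 1.18 and 1.27.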

How the data were processed

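The authors deposited FPKM values for 30012 loci in 12 libraries. Per the submitters' processing notes, Cufflinks 2.1.1, STAR 2.4.0b and the build Sscrofa10.2 were used, in roles not stated. Strand and multiply mapped reads are not given in the sources used here. Every value column matched a labelled library. Group means of log2(FPKM + 1) were fitted over all 12 libraries, in 18278 loci that reached an FPKM of 1 in 3 or more libraries, with limma 3.58.1 in R 4.3.3 and a variance trend, two-sided. Summaries and plots used numpy 2.4.6, pandas 2.3.3 and matplotlib 3.10.9 under Python 3.11.15. The fit was tested on simulated data with normal noise, in which 200 of 18278 loci were changed. All 200 were called, with 0 false calls. Between ESCs and fibroblasts 43.1% of loci were called, so this simulation does not measure the errors of the fit on these data. The members, pathway lists and tests were chosen with earlier results of these data known. Besides all 8 members, the naming rule took up to 4 called genes of a list by size of the ESC and fibroblast difference, up to 2 of each other comparison, and ESRP1; ESRP2 and some listed genes are not analysed here, and a few genes named by it were kept out of the text. Alternatives were other pseudocounts, filters, scalings, variance settings, library weights, a replicate term, summed or other rows of a gene, subsets of loci and leaving out each library.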

Additional observations from a re-analysis of the deposited data

Results flagged for a closer look

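The level of FGF2 against fibroblasts differed between the parthenogenetic lines by the test of ESC7 against ESC3 itself. The log2 difference was 1.01 (adjusted p = 0.00129, limma), with 181, 195 and 177 FPKM in ESC7 and 79.2, 108 and 88.9 in ESC3. The other 6 tested genes were not called between any pair of ESC lines. NUDT6, which overlaps FGF2 on the opposite strand, had 22.2 to 23.1 in ESC7 and 14.5 to 15.3 in ESC3, and its part in the difference was not tested.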

How the results depend on the processing

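Depth is unknown, since the table holds no counts, and FGF4, FGF10 and fibroblast FGFR4 rest on low values. Of 1424 values recomputed for the tested members over all comparisons and alternatives, without FGF7 among ESC lines, where it is at 0, 1355 kept direction and side of the threshold. The count of members called was 4 between ESCs and fibroblasts as reported and 7 with no fold minimum. For ESC11 against fibroblasts it was 4 and 7. Without a fibroblast library FGF7 was above 1 in only 2 libraries and left the fit. Between parthenogenetic and IVF ESCs the count was 0, 1 with no fold minimum and 4 with the same summed FPKM. In that order it was 0, 3 and 5 for ESC3 against ESC11, and 0, 4 and 1 for ESC7 against ESC11. For ESC7 against ESC3 it was 1, and 6 with no fold minimum, 2 with a pseudocount of 0.1 or the same summed FPKM, 0 with a pseudocount of 5, quantile normalization or median-ratio scaling, and 0 to 2 without single libraries. Under the same summed FPKM 53.7% of all loci were called between parthenogenetic and IVF ESCs, 67.0% for ESC3 and 32.9% for ESC7 against ESC11, and 4.00% for ESC7 against ESC3. Other causes were not tested.

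Signs turned mostly with the same summed FPKM, which set the median of all loci at -1.03 for parthenogenetic against IVF ESCs, -1.16 and -0.86 for ESC3 and ESC7 against ESC11, 0.27 for ESC7 against ESC3 and 1.12 for ESC11 against fibroblasts, a shift of the whole table. For parthenogenetic against IVF ESCs it gave FGFR1 -1.10, FGFR2 -0.76, FGFR3 -1.10, FGFR4 -1.04 and FGF4 -0.62. For ESC7 against ESC3 it gave FGFR1 0.11 and FGFR2 0.071. For ESC3 against ESC11 it gave FGFR1 -1.15 and FGFR2 -0.80, and for ESC7 against ESC11 FGFR2 -0.73, FGFR3 -0.76, FGFR4 -0.76, FGF2 -0.59 and FGF4 -0.041. FGF2 in ESC11 against fibroblasts turned to 0.35, and FGFR2 there to -0.060 with median-ratio scaling. Differences near 0 also turned. Without single libraries, FGFR1 in ESC7 against ESC11 ranged from -0.053 to 0.028 (0.0024 without ESC11 library 1), and FGFR4 in ESC3 against ESC11 from -0.077 to 0.020. FGF2 in parthenogenetic against IVF ESCs ranged from -0.25 to 0.16, and was 0.0001 with library weights. FGF4 in ESC3 against ESC11 ranged from -0.30 to 0.0035, and was 0.055 on its minus-strand row. FGFR3 in parthenogenetic against IVF ESCs was -0.082 on its unannotated row.

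Shares of the summed receptor FPKM moved with the rows. With FGFR2 on chromosome 14, fibroblasts had FGFR1 at 45.2% and FGFR2 at 43.4%. With the GL893373.1 row, ESCs had 40.8%, 15.8%, 29.5% and 13.9% for FGFR1 to FGFR4, and fibroblasts 60.7%, 24.0%, 14.05% and 1.27%. With FGFR3 on its unannotated row, ESCs had 36.9%, 36.5%, 13.95% and 12.65%, and fibroblasts had FGFR1 at 43.7%, FGFR2 at 50.4% and FGFR3 at 5.02%. With rows summed, ESCs had FGFR1 at 21.3%, FGFR2 at 48.05% and FGFR4 at 7.26%, and fibroblasts 25.8%, 64.7% and 0.542%.

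Whether replicate numbers pair the samples cannot be told from these values. Over 18 pairs of same-numbered libraries in different groups, the correlation of deviations from group means was -0.0900 to 0.0867. Over 36 pairs with different numbers it was -0.160 to 0.179. With the replicate block, the members called numbered 4 between ESCs and fibroblasts, 0 between parthenogenetic and IVF ESCs and 1 between ESC7 and ESC3, as without it.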
